A study of Mus musculus with 12 samples.

Results

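Atm, Atr, Prkdc, Smg1 and Trrap, the 5 genes described here, encode members of the family of giant PI3K-like protein kinases and were chosen by their symbols among the 43432 genes of the deposited tables. They were picked with their levels in polysome and total mRNA already known, so those levels and their ratio are given as a description, without a test. The levels at each dose were among those known, so the p-values of changes between doses describe these libraries and are no independent support. Mtor, the remaining family member, is given for comparison. Neural stem cells (NSCs) were taken from the subventricular zone of the lateral ventricles of wild-type male C57BL/6 mice of 6 to 8 weeks and cultured with EGF and bFGF. The folic acid in the medium was 1.5 µM (low folate, LF), 10 µM (medium folate, MF, the reference dose) or 80 µM (high folate, HF) for 4 days, and no group was free of folic acid. From each dose, total poly(A) mRNA and polysome poly(A) mRNA, from pooled gradient fractions with more than 3 ribosomes per mRNA, were sequenced in 2 libraries each, which gave 12 libraries in 6 groups. The comparisons between doses address whether folate supply changes mRNA abundance or its loading on polysomes. The replicates are called biological, but no label ties them to separate mice or dishes, and p-values measure only the spread between the libraries given.

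The PI3K-like kinases are very large proteins built of long helical repeats with a kinase domain near the carboxyl end. ATM and ATR are the kinases that open the signalling response to DNA double-strand breaks and to stalled replication forks. DNA-PKcs, the product of Prkdc, holds broken DNA ends for end joining. SMG1 phosphorylates UPF1 in nonsense-mediated mRNA decay, and TRRAP, which has lost its kinase activity, is a scaffold of histone acetyltransferase complexes. mTOR is the nutrient-sensing kinase that sets the rate of protein synthesis. Loss of ATM causes ataxia telangiectasia, in which the cerebellum degenerates.

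Libraries held 20506797 to 23593252 counts for total mRNA and 24193468 to 28170296 for polysome mRNA, as read pairs assigned to genes. Neural stem cell markers were present in every library, with Nes at 357 to 469 TPM (a level per transcript length) and Sox2 at 100 to 115 TPM in total mRNA. Gfap lay at 0.34 to 0.64 TPM there. The 7 neuron markers summed to 39.5 to 47.5 TPM in total mRNA and 26.9 to 89.6 TPM in polysome mRNA, with Rbfox3 at 0 to 0.06 TPM in total mRNA. The 7 markers of the oligodendrocyte lineage summed to 119 to 144 TPM and 69.9 to 116 TPM, with Mog at 0 to 0.17 TPM in total mRNA. The summed level of 9 mesenchymal and mural markers was 280 to 437 TPM in total mRNA and 489 to 957 TPM in polysome mRNA, so this list was higher in the fraction in which the 5 kinases were lower, and its part in the result was not tested. Of the remaining lists, Aif1 and Cx3cr1 of the 6 microglia markers and Cldn5 of the 6 endothelium markers were at 0 in all libraries, and those lists summed to 5.03 to 7.39 TPM and 1.55 to 2.48 TPM in total mRNA. One library stood apart. In a principal component analysis of the polysome libraries, LF replicate 2 lay at 77.2 on the leading component (53.4% of the variance), and the others lay between -32.7 and -3.3.

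In the mouse genome (mm10), Atm lies on the minus strand of chromosome 9 from 53439149 to 53536740, with 64 exons and a coding sequence for 3066 residues. Atr lies on the plus strand of chromosome 9 from 95857597 to 95951781 and encodes 2641 residues in 47 exons. Prkdc (chromosome 16, 15637866 to 15842235, plus strand, 86 exons) encodes 4128 residues, the most of the 5. Smg1 (chromosome 7, 118131308 to 118243670, minus strand, 63 exons) encodes 3658 residues and Trrap (chromosome 5, 144767732 to 144859778, plus strand, 71 exons) encodes 3859. Mtor (chromosome 4, 148448611 to 148557683, plus strand, 58 exons) encodes 2549. The coding sequences also differ in base composition. GC made up 41.1% of the Atr, 42.7% of the Atm, 43.3% of the Prkdc, 45.7% of the Smg1 and 54.1% of the Trrap coding sequence, against 54.9% in Mtor. Atr overlaps 2 antisense genes, Gm16794 over 9737 bases and 1700065D16Rik over 726 bases, which together took few reads (101 and 25 counts over the 6 total libraries), and the strand setting of the counting is not given in the sources used here. The values of Atr are uncertain to that extent.

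Atm starts head to head with Npat, a histone gene transcription factor, across a gap of 306 bases, and Prkdc with Mcm4, a subunit of the replicative helicase, across 465 bases. The stretch upstream of Atm is shown because the start region is common to a pair of genes whose mRNAs can be compared. It runs 5′ to 3′ on the minus strand over chr9:53536741-53536921, outside both GENCODE transcripts, from the RefSeq promoter table (GRCm38.p6), with a GC box (GGGCGG) and a CCAAT box read on the opposite strand (ATTGG) in capitals.
Atm upstream stretch: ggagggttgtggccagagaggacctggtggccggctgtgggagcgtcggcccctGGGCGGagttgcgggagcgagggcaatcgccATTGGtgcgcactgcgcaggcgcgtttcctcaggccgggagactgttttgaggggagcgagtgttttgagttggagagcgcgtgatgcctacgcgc
Searched on both strands in the 250 bases before each start, GGGCGG was present for all 4 members with an entry (Atm, Atr, Smg1 and Trrap) and in 32.7% of 32851 promoter windows, and CCAAT for Atm and Smg1 and in 33.8% of the windows. These matches are descriptions of the letters. Npat stood at 72.1 ± 4.09 CPM in total mRNA and 13.2 ± 3.57 CPM in polysome mRNA (SD, n = 6 libraries over the 3 doses), a log2 polysome-to-total ratio of -2.45. Mcm4 stood at 193 ± 7.43 and 131 ± 20.5 CPM, a ratio of -0.56.

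The 5 kinase mRNAs were lower on polysomes than in the total fraction at every dose, and Atm was the most extreme of them. In CPM (counts scaled to the library size, with TMM factors), Atm stood at 101 and 96.8 in the LF, 97.8 and 97.8 in the MF and 95.1 and 90.5 in the HF total libraries. On polysomes it stood at 4.51 and 5.75 in LF, 6.36 and 7.56 in MF and 7.98 and 9.19 in HF, from 111 to 223 counts per library. Every polysome value lay far below the lowest total value, and the polysome values of the 3 doses did not overlap, in the order LF, MF, HF. Over the doses the log2 ratio of polysome to total was -3.83 ± 0.097 (SE of the 12-library fit), 14.3-fold lower on polysomes. Of 14421 genes tested, 339 (2.35%) had a lower ratio than Atm.

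Atr, the replication stress kinase, stood at 42.8 and 39.1 CPM in LF, 44.3 and 42.2 in MF and 45.5 and 36.7 in HF total mRNA. Its polysome values were 6.995 and 11.5 CPM in LF, 10.1 and 10.7 in MF and 11.6 and 11.2 in HF. The LF duplicates spanned nearly the whole polysome range of Atr. Its log2 ratio was -2.02 ± 0.127, 4.05-fold lower on polysomes.

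Prkdc stood at 52.9 and 48.1 CPM in LF, 48.0 and 51.4 in MF and 52.9 and 46.4 in HF total mRNA. On polysomes it stood at 7.97 and 10.7 CPM in LF, 12.3 and 10.6 in MF and 9.84 and 9.60 in HF. MF replicate 1 held the highest polysome value, and LF and MF overlapped. Its log2 ratio was -2.30 ± 0.102, 4.92-fold lower.

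Smg1, the decay kinase, stood at 196 and 189 CPM in LF, 190 and 194 in MF and 195 and 177 in HF total mRNA. On polysomes it stood at 26.9 and 43.8 CPM in LF, 33.2 and 36.8 in MF and 39.0 and 41.8 in HF, so the LF duplicates held both its lowest and its highest value. Its log2 ratio was -2.37 ± 0.116, 5.16-fold lower. 

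Trrap, the scaffold, had the highest level of the 5 in counts, with 270 and 252 CPM in LF, 270 and 268 in MF and 274 and 267 in HF total mRNA. On polysomes it stood at 77.8 and 39.3 CPM in LF, 83.3 and 83.3 in MF and 70.6 and 65.2 in HF. The low LF value came from replicate 2, the library that stood apart, in which Smg1 had its highest polysome value and Atr its second highest. The log2 ratio of Trrap was -1.95 ± 0.142, 3.85-fold lower.

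Mtor stood at 95.8 to 110 CPM in total mRNA, close to Atm, but at 36.9 to 55.3 CPM on polysomes, above every polysome value of Atm. Its log2 ratio was -1.08 ± 0.098, 2.11-fold lower, and in CPM, without a length correction, the polysome-to-total order of the 6 kinases from low to high was Atm, Smg1, Prkdc, Atr, Trrap and Mtor. In mean TPM Trrap (1.61-fold lower) and Mtor (1.92-fold lower) changed places. With the trend on the deposited gene length removed, the order was Atm, Trrap, Atr, Prkdc, Smg1 and Mtor. In the CPM order, without the length correction, Smg1 and Prkdc, and Atr and Trrap, lay within 1 SE of each other. For all 5 members every polysome library lay below every total library, which was so for 29.5% of the genes tested, and 38.4% of the genes were called lower on polysomes by edgeR (a call takes an adjusted p under 0.05 together with a fold change over 1.2). Nothing is read from these shares, since the members were chosen by this contrast.

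**Figure D1:**
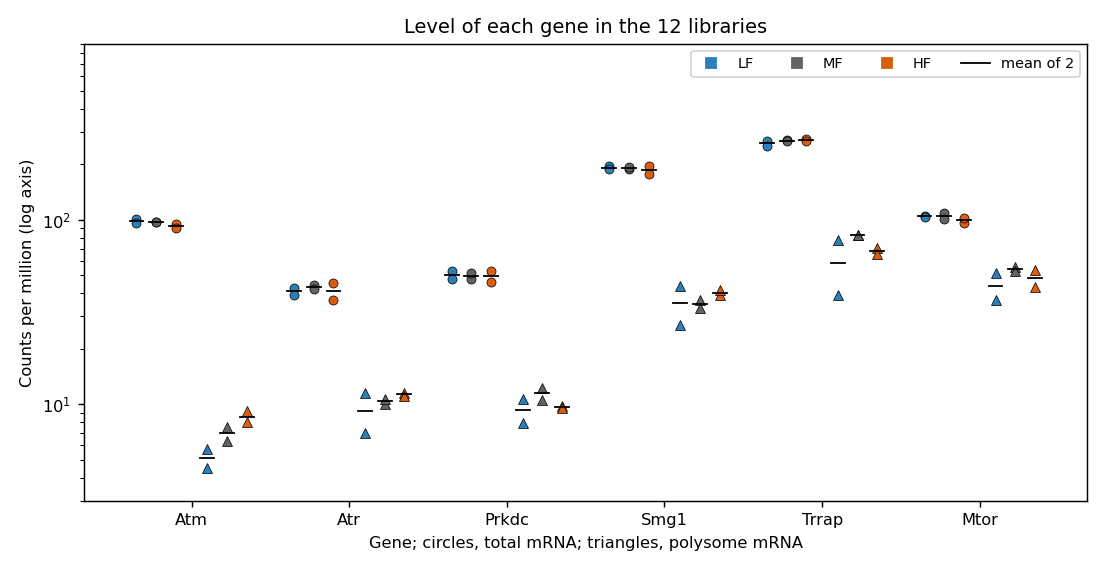
Level in CPM (log axis) of the 5 kinases and Mtor in the 12 libraries, with total mRNA as circles, polysome mRNA as triangles, the folate dose as colour and the mean of each group of 2 as a bar. The total values of Atm sit between 90.5 and 101, its polysome values between 4.51 and 9.19.

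**Figure D2:**
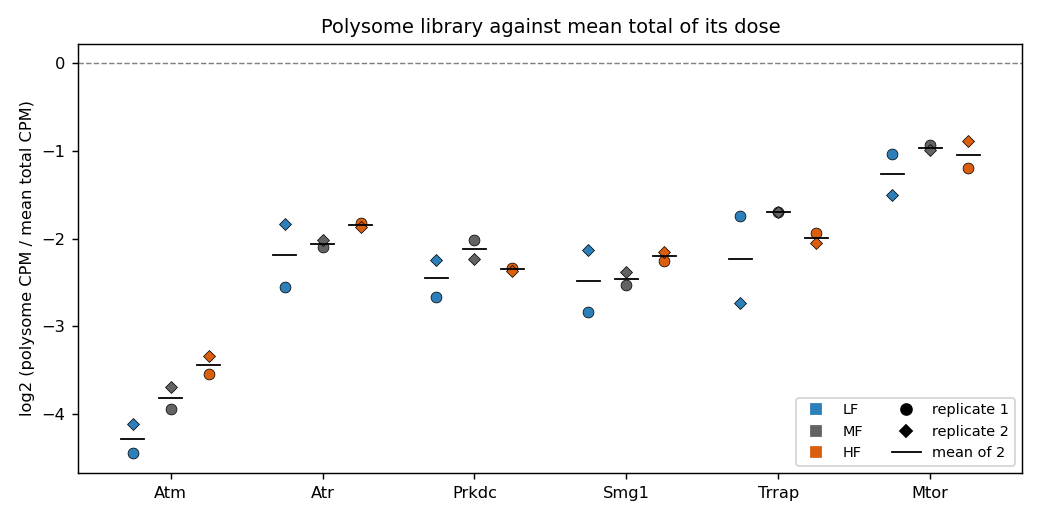
log2 of each polysome library's CPM over the mean total level of its dose, with replicate 1 as a circle, replicate 2 as a diamond and the mean of 2 as a bar. Atm runs from -4.45 to -3.34, below every value of the other genes, and LF replicates of Atr, Smg1 and Trrap lie far apart.

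Levels of different genes are compared per length, in the deposited TPM. In total mRNA the order was Trrap (64.0 ± 1.87 TPM, SD, n = 6), Smg1 (23.6 ± 1.36), Mtor (22.6 ± 1.60), Atm (16.8 ± 0.807), Atr (10.3 ± 1.13) and Prkdc (6.82 ± 0.376). The ranges of Smg1 and Mtor overlapped, and the other neighbours did not. On polysomes the order was Trrap (39.8 ± 12 TPM), Mtor (11.8 ± 3.57), Smg1 (3.34 ± 0.518), Atr (2.04 ± 0.457), Atm (1.31 ± 0.434) and Prkdc (1.13 ± 0.150). Here Smg1 overlapped Atr, and the ranges of Atr, Atm and Prkdc overlapped one another. Atm thus stood above Atr in total mRNA and not on polysomes.

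A long open reading frame went with a low polysome-to-total ratio across the transcriptome. The median log2 ratio was 0.40 for the 2451 tested genes under 250 residues, -0.23 for 4191 genes of 500 to 999, -1.11 for 391 genes of 1500 to 1999 and -1.89 for 198 genes of 2500 or more residues, of which 97.5% lay below 0. Across 12982 tested genes with a coding sequence, the ratio and the log2 number of residues had a Pearson's r of -0.39 and a Spearman's rank correlation of -0.46. These points share their libraries, and genes are not independent replicates. The 193 giant genes that are not members had a median of -1.85, with a middle range from -2.32 to -1.30. Atr (-2.02) and Trrap (-1.95) lay inside that range, Prkdc (-2.30) at its lower edge and Smg1 (-2.37) just under it. Atm, at -3.83, lay far outside it, and 3 of the 198 giant genes had a lower ratio. Mtor was higher than 161 of them.

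The 3 giant genes under Atm were Neb, a filament protein of muscle (-4.39, at a mean of only 0.410 CPM), Syne2, a nuclear envelope anchor (-4.25), and Mki67, the proliferation antigen Ki-67 (-4.12). At the upper end were Lama1, a laminin chain (3.27), Dnah1, an axonemal dynein (1.19), and Hmcn1, a matrix protein (0.59), the last 2 at a mean under 1 CPM. The giant genes were also binned by coding GC. Giant genes under 45% GC had a median ratio of -2.13 (31 genes), those of 45 to 50% a median of -2.05 (57 genes) those of 50 to 55% a median of -1.46 (54 genes) and those of 55% or more a median of -1.84 (51 genes), so the medians did not rise steadily with GC. Against the median of the bin of its own GC, Atm was lower by more than 1 log2 unit. Prkdc, Smg1 and Trrap also lay below the medians of their bins, and Atr lay above the median of its bin. Across the 193 giants, coding GC and the ratio had a Pearson's r of 0.19 and a Spearman's rank correlation of 0.20.

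When the trend of each library's log2 level on gene length was removed, the log2 ratios shrank to -2.54 for Atm, -1.14 for Trrap, -0.91 for Atr, -0.67 for Prkdc, -0.61 for Smg1 and 0.02 for Mtor, beside a median of 0.24 over all genes. Then 4.44% of the tested genes lay below Atm, against 12.4% to 20.8% below the other 4 members. On this scale Atm was 5.81-fold lower on polysomes, Trrap 2.21-fold and Smg1 1.52-fold. The length used was the deposited gene length averaged over the 12 libraries, not the number of residues. For Trrap that length had a mean of 7298 bases in total mRNA and 2736 on polysomes. The GENCODE transcript with its longest coding sequence has 12398 bases. How far this set the place of Trrap was not tested.

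**Figure D3:**
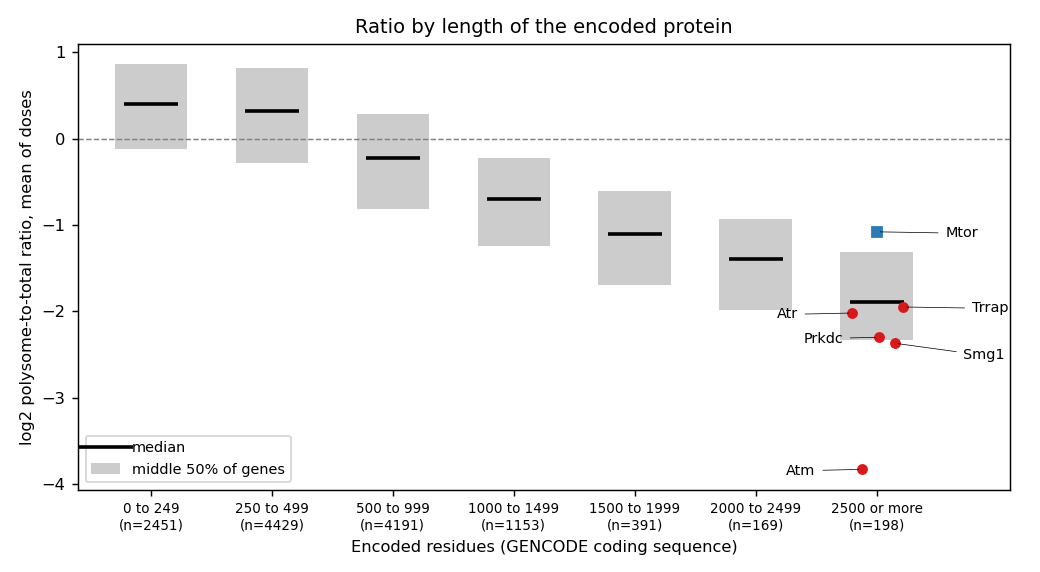
log2 polysome-to-total ratio, mean of the doses, by the number of encoded residues, with the median as a line and the middle 50% of the genes of each bin as a grey box. The medians go from 0.40 under 250 residues to -1.89 at 2500 or more, and Atm (-3.83) lies far below the last box.

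RSEM gives each gene a length weighted by the transcripts it assigns reads to, and this length differed between the fractions for some of the kinases. Trrap had a length of 7087 to 7650 bases in the 6 total libraries and of 2462 to 3008 bases in the 6 polysome libraries. The ranges did not overlap, and the mean was 2.67-fold shorter on polysomes. The reads of Trrap on polysomes were therefore assigned more to its shorter listed transcripts, of which the tables name 10 in all. Trrap was 3.82-fold lower on polysomes in mean CPM and 1.61-fold lower in mean TPM. For Smg1 the length was greater on polysomes (14708 to 15557 bases against 13486 to 14242), and its fold was 5.15 in CPM and 7.04 in TPM. Prkdc kept nearly the same length in all libraries (12475 to 12647 bases). Atm had 9814 to 10006 bases in total mRNA and 4599 to 10006 on polysomes, from 111 to 223 counts a library. Atr spread from 5835 to 8074 bases on polysomes around its total range of 6740 to 7606. Counts of single transcripts were not analysed here, so which transcripts carry the shorter length was not tested.

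**Figure D4:**
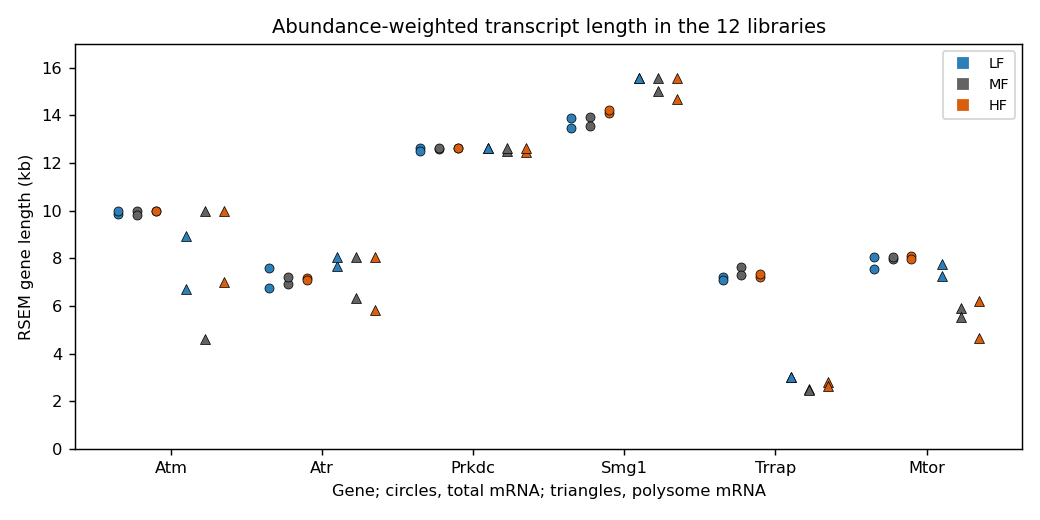
Length of each gene as RSEM weighted it by transcript abundance, in kilobases, in the total (circles) and polysome (triangles) libraries, coloured by folate dose. Trrap drops from 7087 to 7650 bases in total mRNA to 2462 to 3008 bases on polysomes.

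Total mRNA of the 5 kinases differed little between the folate doses. Replicates varied less in total mRNA (biological coefficient of variation of 0.0433 over all genes) than on polysomes (0.231). The log2 changes of the kinases in total mRNA ranged from -0.09 to 0.05, and 0 of 5 were called in HF against MF (0.0863% of all genes called), LF against MF (0.00719%) or HF against LF (1.79%). The lowest adjusted p among them was 0.495 (edgeR), for Atm in HF against LF, with a log2 change of -0.09 ± 0.052. Both HF libraries of Atm lay below the LF and MF libraries, as was so for 21.2% of genes against LF and 18.4% against MF.

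On polysomes the values of Atm were ordered by dose, and no member passed the test. The log2 change of Atm was 0.75 ± 0.284 (1.69-fold) in HF against LF, with an adjusted p of 0.305 (edgeR), -0.45 ± 0.283 in LF against MF and 0.30 ± 0.280 in HF against MF. Non-overlapping values in the order LF, MF, HF occurred in 2.32% of genes. All 5 members were above 0 in HF against LF (0.07 to 0.75) and all 5 below 0 in LF against MF, where Smg1 was at 0.00 and Trrap at -0.52 ± 0.314. These comparisons share the LF libraries. In HF against MF, 3 members lay above 0 and 2, Prkdc and Trrap, below. The shares of all genes called were 0.0149%, 0.0223% and 0%, and in HF against MF 453 genes had an unadjusted p under 0.05 in edgeR and 20 were called by DESeq2. Fitted by edgeR without the LF libraries, HF against MF called 707 of 13243 genes and 0 of 5 members.

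The polysome-to-total ratio (TE, translation efficiency), tested as the interaction of fraction and dose, gave a like picture. Atm had a log2 ratio of -4.27 in LF, -3.81 in MF and -3.43 in HF. Its change in HF against LF was 0.83 ± 0.220 (1.78-fold), with an unadjusted p of 0.00335 and an adjusted p of 0.125 (edgeR), so it did not pass over all genes. DESeq2 gave 0.86 with an adjusted p of 0.0211 for the same change, in a fit that called 5.81% of the genes with an adjusted p. In LF against MF the change of Atm was -0.46 ± 0.220 (adjusted p of 0.343, edgeR) and in HF against MF 0.38 ± 0.217. For the other 4 members the TE changes lay between -0.46 and 0.29. In TE, 0 of 5 members were called in HF against LF (0.0971% of all genes), LF against MF (0.236%) and HF against MF (0%). In HF against MF, 599 genes had an unadjusted p under 0.05 in edgeR and 28 were called by DESeq2. Fitted by edgeR without the LF libraries, that comparison called 217 of 14243 genes and again 0 of 5 members.

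These changes turned on the LF polysome duplicates. Without LF replicate 2, the library that stood apart, Atm (0.93), Atr (0.70) and Smg1 (0.59) were called higher on polysomes in HF against LF, with adjusted p of 0.0298, 0.0497 and 0.0331 in edgeR, and in TE with log2 changes of 1.02, 0.69 and 0.64. These fits called 15.4% of all genes on polysomes and 17.2% in TE. Without LF replicate 1, Atr (-0.03) and Smg1 (-0.12) lay below 0 and Trrap was called instead, at 0.78 on polysomes in HF against LF and at -1.08 in LF against MF (adjusted p of 0.00116 and 6.47e-05, edgeR), while Trrap without replicate 2 lay at -0.19 in HF against LF. The fits without replicate 1 called 39.3% of all genes on polysomes in HF against LF and 50.5% in LF against MF. The TE of Atm was higher in HF than in LF without either library, at 0.67 without replicate 1 (adjusted p of 0.0088) and 1.02 without replicate 2 (adjusted p of 0.00301, both edgeR), in fits that called 37.6% and 17.2% of all genes. In these fits the lone LF polysome library is assumed to vary like the other groups.

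**Figure D5:**
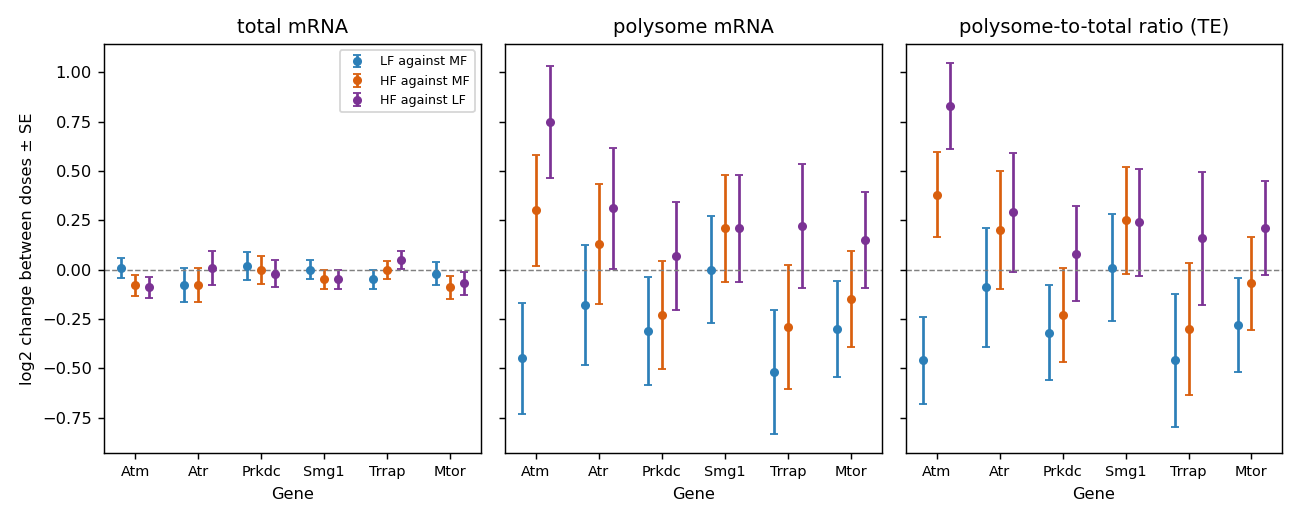
log2 change between doses ± SE of the 5 kinases and Mtor, in total mRNA, polysome mRNA and the polysome-to-total ratio (TE). Total values stay between -0.09 and 0.05, and Atm in HF against LF is the highest point on polysomes (0.75) and in TE (0.83), without passing the test.

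The genes whose levels followed Atm most closely over the 12 libraries were also giants. By Pearson's r of log2 CPM among 10662 genes with a mean over 5 CPM, these were Birc6 (0.9991), a ubiquitin ligase that inhibits apoptosis, Vps13c (0.9989) and Vps13a (0.9982), lipid transfer proteins, Trio (0.9980) and Mycbp2 (0.9975), a ubiquitin ligase. They encode 3103 to 4882 residues, and their log2 ratios ran from -3.23 (Vps13a) to -1.65 (Trio). Among the kinases, Smg1 ranked 28th, Atr 71st, Prkdc 109th, Mtor 869th and Trrap 879th. The 12 libraries span both fractions, so the measure includes the difference between polysome and total mRNA.

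The medians of the partner lists lay nearer to 0 than the kinases. Many partners encode far shorter proteins, and the lists were not matched for length. Over all tested genes the median was 0.32 at 250 to 499 residues and -0.23 at 500 to 999. Of 9 genes of the TTT and R2TP chaperones, which assemble the PI3K-like kinases, 7 had a ratio above 0, with a median of 0.36, beside a median of -0.09 over all genes. Ruvbl1, an ATPase of that machinery, was at 1.32 and Tti2, a TTT subunit, at 1.24, while Tti1, its partner subunit, was at -0.28 and the chaperone Hsp90aa1 at -0.88.

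Among 20 ATM partners and substrates, 14 lay below 0 and the median was -0.63. Mdc1, the scaffold that binds phosphorylated histone H2AX, was at -2.15 and Brca1, a repair ubiquitin ligase, at -1.53, whereas Kat5, the acetyltransferase of TIP60, was at 0.90 and Rnf8, a ubiquitin ligase at breaks, at 1.12. Of 18 ATR partners, 10 lay below 0 (median of -0.10). The ATR activators Etaa1 and Topbp1 were at -2.51 and -1.87, and Rad1 of the sliding clamp and Rpa3 of the single-strand binding complex at 1.13 and 0.55.

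Of 12 genes of DNA-PK and end joining, 9 lay above 0 (median of 0.29). Xrcc6, which encodes Ku70, was at 1.49 and Xrcc4 at 0.99, and the nuclease Dclre1c (Artemis) and the ligase Lig4 (705 and 911 residues) were at -2.98 and -2.37. Of 17 genes of the SMG1 complex and nonsense-mediated decay, 10 lay below 0 (median of -0.27), with Upf2 at -1.91, Upf3b at -1.74 and the exon junction proteins Magoh and Magohb at 1.50 and 1.42.

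Of 32 tested genes of the TRRAP complexes TIP60 and SAGA, 21 lay above 0 (median of 0.29), with Supt3 (1.95) and Morf4l2 (1.04) highest and Atxn7 (-1.54) and Epc2 (-1.36) lowest. Of 20 p53 targets, genes downstream of ATM and ATR signalling, 13 lay above 0 (median of 0.31). They ran from Ccng1 (-1.69) and Trp53inp1 (-1.75) to the stress cytokine Gdf15 (3.75) and Sesn2 (1.24). Gdf15 had a mean of only 0.332 CPM in total mRNA. None of the genes of these 7 lists was called between doses in total mRNA, polysome mRNA or TE by edgeR. Over all genes the share called ran from 0% to 1.79% in the 9 comparisons, so nothing is read from this. Npat and Mcm4 were not called either, and the polysome log2 change of Npat in HF against LF was -0.12 ± 0.363, beside 0.75 ± 0.284 for Atm.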

How the data were processed

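The 12 gene tables held expected counts, TPM, FPKM and gene lengths. The authors trimmed the reads, aligned them with Bowtie2 2.2.9 to mm10 and quantified genes with RSEM 1.3.0, as the labels and methods state. The deposited expected counts are estimates and were rounded. The deposited TPM was used for levels per length, and FPKM as deposited by the authors was not used. The deposited gene lengths, an other measurement, are weighted by transcript abundance. Differences were tested with edgeR 4.0.16 (R 4.3.3): TMM, filterByExpr and the robust quasi-likelihood test with Benjamini-Hochberg adjustment over all genes. A call needs an adjusted p under 0.05 and a fold above 1.2. Total mRNA was fitted over 6 libraries (13912 genes), polysome mRNA over 6 (13433 genes) and TE over 12 (14421 genes). DESeq2 1.42.0 was an alternative. The scripts were tested on simulated data.

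The study used DESeq2 and Xtail, which was not run. The members and gene lists were chosen with earlier results of these data known. Of 43432 identifiers, 97.96% matched GENCODE M21 (mm10), whose longest coding sequence gave residues and GC in place of RefSeq proteins. Lists name each called gene and otherwise the 2 highest and 2 lowest ratios above a mean of 1 CPM, giants the 3 highest and 3 lowest, and the 5 genes most like Atm by Pearson's r. Ccdc101 was not matched. Replicate pairs differed by more than sampling noise (chi-square over degrees of freedom of 2.70 to 134.69), so each library counted once. No molecular identifiers were used, and the true error exceeds counting error.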

Additional observations from a re-analysis of the deposited data

How the results depend on the processing

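The 5 members had 0 calls in each of the 9 comparisons between doses, and this held with no low count filter, upper quartile scaling, only the 2 doses compared and the length trend removed. DESeq2 called 1 member in TE of HF against LF, where it called 702 of 12078 genes. Leaving out 1 library at a time gave 0 to 1 members called on polysomes and in TE for LF against MF, and 0 to 3 in each for HF against LF, all from the polysome LF libraries, and 0 in the other 5 comparisons. The fits with those calls had a lone LF polysome library and called a large share of all genes, so nothing is read from the calls. Without polysome LF replicate 2, Atr was at 0.70 (polysome) and 0.69 (TE) and Smg1 at 0.59 and 0.64 in HF against LF. Without replicate 1, Trrap was at 0.78 and 0.74 in HF against LF, and at -1.08 and -1.04 in LF against MF. Of 630 recomputed changes, 41 had the other sign, all of changes of at most 0.31. Among the changes followed one by one, the reversed values were -0.02 for Atm in total mRNA LF against MF without total LF replicate 1 (0.04 without replicate 2), -0.03 (polysome) and -0.02 (TE) for Atr and -0.12 and -0.06 for Smg1 in HF against LF without polysome LF replicate 1, and -0.19 and -0.25 for Trrap without polysome LF replicate 2. The cause was not tested. The log2 ratio moved by more than the replicate spread with the length trend removed (Atm -2.54, Atr -0.91, Prkdc -0.67, Smg1 -0.61, Trrap -1.14) and in TPM (Atm -3.64, Prkdc -2.50, Smg1 -2.79, Trrap -0.75), and stayed below 0.

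With the replicate number as a block, 0 members were called. Differences between replicates 1 and 2 correlated between -0.14 and 0.138 over 15 pairs of groups. These weak correlations gave no sign that the numbers pair the samples, but they cannot exclude it, and no label settles it. Over all genes, calls depended strongly on the settings. Main counts and their lowest and highest over all settings were 12 (0 to 99), 1 (1 to 70) and 249 (81 to 426) in total mRNA for HF against MF, LF against MF and HF against LF. In the same order they were 0 (0 to 783), 3 (2 to 6987) and 2 (2 to 5438) on polysomes, and 0 (0 to 443), 34 (2 to 6853) and 14 (2 to 5576) in TE. For polysome LF against MF, the block gave 231 and DESeq2 636. Atm rests on 111 to 223 counts per polysome library, and each group on 2 libraries.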
